A study of Mus musculus with 15 samples.

Results

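The 7 genes described here encode the 4 Rag GTPases (Rraga, Rragb, Rragc and Rragd), folliculin (Flcn) and its partners, the folliculin-interacting proteins (Fnip1 and Fnip2). They were chosen by name, from array entries annotated with exactly 1 gene symbol. Each had a single such entry, so 7 of the 22180 genes tested are described, and all 7 entered every test because no filter on low values was applied. In kidneys of mice carrying a Cre-activated PRCC-TFE3 fusion, 5 of them were called higher at both 4 and 7 months of age. These were Rragd, Rragc, Rragb, Flcn and Fnip2, with differences between 1.39-fold and 2.82-fold. Over all genes, 2.47% were called higher at both ages. The 4-month call of Rragb held in 11 of 15 fits that left a kidney out. The differences of Rraga and Fnip1 did not pass the test at either age.

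The mice carried a Rosa26-LSL-PRCC-TFE3 knock-in allele, in which a loxP-flanked stop cassette holds back the fusion until Cre removes it. Whole kidneys came from 4 groups, namely PRCC-TFE3;KSP-Cre- mice at 4 months (n = 4), PRCC-TFE3;KSP-Cre+ mice at 4 months (n = 4), PRCC-TFE3;KSP-Cre- mice at 7 months (n = 3) and PRCC-TFE3;KSP-Cre+ mice at 7 months (n = 4). All 4 groups carry the knock-in allele, and they are called Cre- and Cre+ below. KSP is the promoter of the Ksp-cadherin gene Cdh16, which is active in the tubular epithelium of the kidney. No group with Cre alone was analysed here, so an effect of the fusion and one of the Cre transgene cannot be told apart. The labels give neither the sex of the mice nor the share of tumour in each kidney.

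Rag GTPases work as pairs on the surface of the lysosome, RagA or RagB joined to RagC or RagD. When amino acids are plentiful, the pair recruits the kinase complex mTORC1 to the lysosome. The folliculin complex is the GTPase-activating protein for RagC and RagD, and this step lets mTORC1 phosphorylate the MiT transcription factors TFEB, TFE3 and MITF and hold them in the cytoplasm. Loss of folliculin in the kidney leaves these factors in the nucleus, and inherited loss causes Birt-Hogg-Dube syndrome, which brings renal tumours. Rragd, Flcn and other genes of this circuit are known targets of the MiT factors, which bind E-boxes with the core CACGTG. PRCC-TFE3 is a fusion found in translocation renal cell carcinoma and keeps the DNA-binding part of TFE3.

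Promoters of 4 members are printed because they hold the range of E-box content among the 7, from 3 matches to none. All 7 genes matched a RefSeq promoter window of 300 bases (GRCm38.p6, 250 bases before the annotated gene start and 50 after it). Each line gives the first 260 bases of a window, 5′ to 3′ on the gene's strand (the plus strand for these 4), and capitals mark CACGTG. They lie at chrX:153139708-153139967 for Rragb, chr4:123917183-123917442 for Rragc, chr11:54437929-54438188 for Fnip1 and chr4:32982748-32983007 for Rragd, and only the last 10 bases of each lie after the start.
Rragb: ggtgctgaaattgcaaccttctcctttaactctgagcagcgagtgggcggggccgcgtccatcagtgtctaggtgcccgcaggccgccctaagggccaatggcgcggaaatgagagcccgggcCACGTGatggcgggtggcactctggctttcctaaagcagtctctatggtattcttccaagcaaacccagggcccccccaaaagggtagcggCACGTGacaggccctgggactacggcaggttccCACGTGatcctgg
Rragc: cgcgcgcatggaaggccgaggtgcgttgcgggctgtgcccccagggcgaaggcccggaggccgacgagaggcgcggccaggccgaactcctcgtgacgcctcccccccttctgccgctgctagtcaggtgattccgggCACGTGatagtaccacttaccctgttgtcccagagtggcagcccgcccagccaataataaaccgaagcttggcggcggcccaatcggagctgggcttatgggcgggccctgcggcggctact
Fnip1: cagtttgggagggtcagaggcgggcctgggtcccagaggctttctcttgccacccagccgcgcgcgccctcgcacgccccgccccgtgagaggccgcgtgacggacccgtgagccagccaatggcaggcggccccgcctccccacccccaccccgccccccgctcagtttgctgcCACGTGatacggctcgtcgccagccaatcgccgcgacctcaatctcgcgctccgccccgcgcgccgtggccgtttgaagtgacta
Rragd: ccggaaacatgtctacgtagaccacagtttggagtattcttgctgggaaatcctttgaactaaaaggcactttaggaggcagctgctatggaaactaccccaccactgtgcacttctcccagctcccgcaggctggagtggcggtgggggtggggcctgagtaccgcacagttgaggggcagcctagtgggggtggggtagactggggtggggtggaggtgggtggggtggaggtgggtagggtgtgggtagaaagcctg
Rragb held 3 matches, with first bases 127, 36 and 3 bases before the start, the last of which spans the start. Rragc held 1 match, 112 bases before its start, and Fnip1 held 1, 75 bases before its start. None of the windows of Rragd, Rraga, Flcn and Fnip2 held one. The core reads the same on both strands, so each match was counted once. Of all 32851 promoter windows of this length, 2349 (7.15%) held CACGTG and 29 (0.0883%) held it 3 or more times. The CLEAR element, which is the core with GT before it and AC after it, was found in 107 windows (0.326%) and in 0 of the 7. TCATGTG, the M-box recognised by MITF, was searched on both strands and found in 1239 windows (3.77%), with 0 of the 7 among them. A match is only a run of letters, and binding was not measured in these kidneys.

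**Figure D1:**
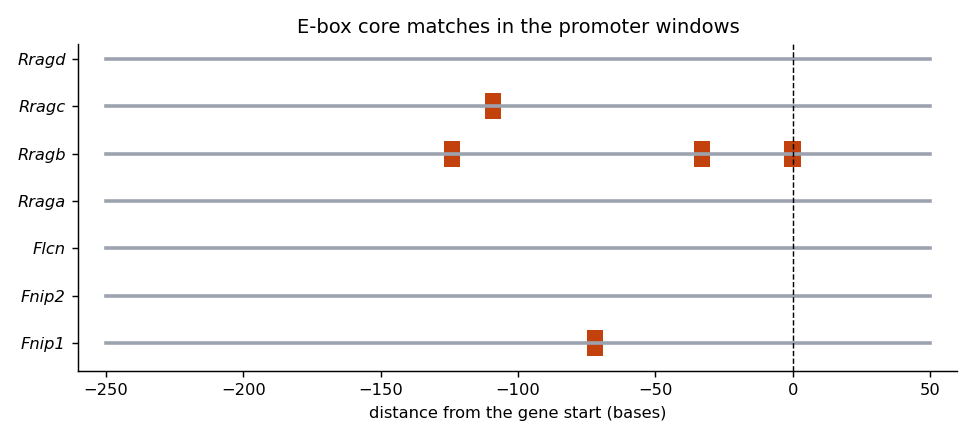
Positions of the E-box core in the 300-base promoter windows of the 7 genes. The horizontal axis gives the distance from the annotated gene start in bases, each grey line is a window, each box is a match drawn to scale, and the dashed line is the gene start. Rragb has 3 matches, Rragc and Fnip1 have 1 each, and the other 4 windows have none.

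Values are log2 expression as deposited, 1 array per mouse, and differences are Cre+ minus Cre- within an age unless stated. Array medians over all entries lay between 4.40 and 4.55. Over the 22180 genes tested they were 4.94 to 4.99 in Cre- and 4.96 to 5.13 in Cre+ kidneys at 4 months. At 7 months they were 4.9 to 5.01 in Cre- and 4.99 to 5.06 in Cre+ kidneys. The mean correlation of an array with the others of its group was 0.985 to 0.99. Within every group, arrays with high values of Y-linked genes lay apart from those with low values on the second principal component. In 7-month Cre- kidneys, for example, this component was -20.7 for replicate 1 (low) and 16.4 and 10.1 for replicates 2 and 3 (high). Nephron genes were used to check the tissue label. The sodium-phosphate transporter gene Slc34a1 and the receptor gene Lrp2 each had a mean above that of 99.8% of genes. This share was 99.9% for Umod, 99.8% for Slc12a1, 99.6% for Slc12a3, 97.9% for Cdh16, 95.1% for Aqp2 and 65.3% for Nphs1. A gene was called changed at a limma p-value under 0.05 after Benjamini-Hochberg adjustment over all 22180 genes. In whole kidney, fewer cells of a type and less RNA per cell cannot be told apart. The labels do not say how mice were assigned to arrays or whether littermates were used.

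At 4 months, 5 of the 7 genes were called higher and 0 lower in Cre+ kidneys, against 2.73% of all genes called higher and 0.803% called lower. At 7 months, 5 of 7 were again called higher and 0 lower, against 11.7% and 10.8% of all genes. The same 5 genes made up both counts, and 547 of the 22180 genes (2.47%) were called higher at both ages. In 6 of the 7 genes every Cre+ array lay above every Cre- array at 4 months, and in 5 of the 7 at 7 months, where 6.31% and 14% of all genes did so. The median difference of the 7 was 0.53 at 4 months and 0.64 at 7 months, beside 0.05 and -0.04 over all genes. Centring each array on its median turned the counts over all genes from 606 higher and 178 lower to 497 and 511 at 4 months, and from 2597 and 2394 to 2337 and 3609 at 7 months, with 5 of the 7 called higher in each case. The 7 were chosen with results of these data known, so the counts describe them and are no independent evidence.

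**Figure D2:**
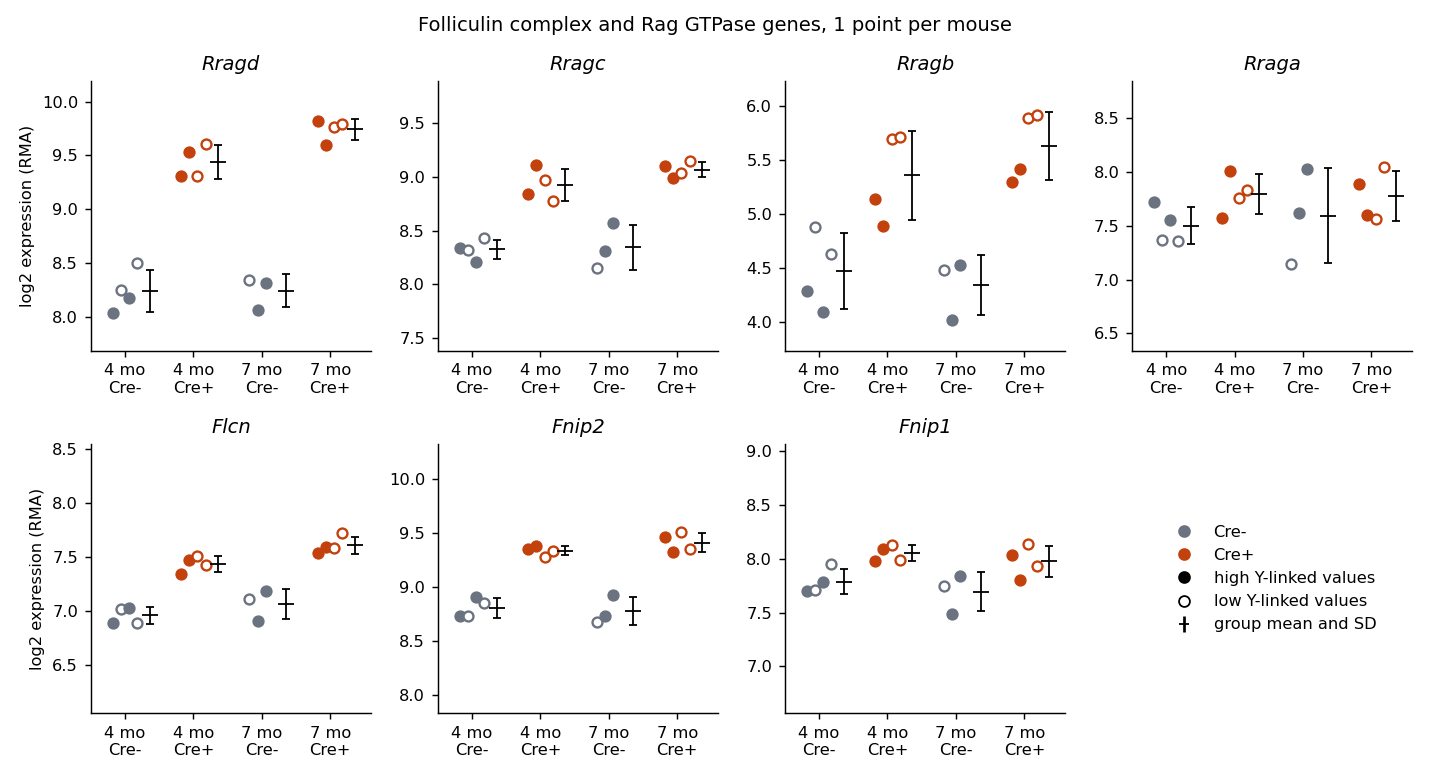
Deposited log2 expression of the 7 genes in each of the 15 kidneys. Each panel is a gene, each point a mouse in 1 of the 4 groups, and bars give the group mean and SD. Cre+ and Cre- points are apart at both ages for Rragd, Rragc, Rragb, Flcn and Fnip2, and they overlap at both ages for Rraga.

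Rragd, which encodes 1 of the GTPases that folliculin acts on, had the largest differences of the 7 at both ages. Its values in 4-month Cre- kidneys were 8.04, 8.25, 8.18 and 8.50, and those in 4-month Cre+ kidneys were 9.31, 9.53, 9.31 and 9.61. At 7 months the Cre- values were 8.35, 8.07 and 8.32, and the Cre+ values were 9.82, 9.60, 9.76 and 9.79. All 8 Cre+ kidneys lay above all 7 Cre- kidneys. The difference was 1.20 at 4 months (SE 0.11, 2.29-fold, 95% interval 0.96 to 1.44, limma adjusted p = 4.9e-06). At 7 months it was 1.50 (SE 0.12, 2.82-fold, 95% interval 1.23 to 1.76, adjusted p = 2.6e-07). Every alternative setting kept the call at both ages.

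Rragc, the paralogue of Rragd and also a substrate of folliculin, was higher by a smaller amount. Its 4-month values were 8.34, 8.32, 8.21 and 8.43 in Cre- kidneys and 8.84, 9.11, 8.97 and 8.77 in Cre+ kidneys. At 7 months they were 8.15, 8.31 and 8.57 in Cre- kidneys and 9.10, 8.99, 9.03 and 9.14 in Cre+ kidneys. The groups did not overlap at either age. The difference was 0.59 at 4 months (SE 0.11, 1.51-fold, adjusted p = 0.0033) and 0.72 at 7 months (SE 0.11, 1.65-fold, adjusted p = 1.8e-04).

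Rragb, an X-linked gene whose product pairs with RagC or RagD, also rose at both ages, with the widest spread among mice (pooled within-group SD 0.35, against 0.09 to 0.26 for the other 6). Its 4-month values were 4.29, 4.88, 4.09 and 4.63 in Cre- kidneys and 5.14, 4.89, 5.70 and 5.72 in Cre+ kidneys. The groups were apart by only 0.01 at that age. At 7 months the values were 4.48, 4.02 and 4.53 in Cre- kidneys and 5.30, 5.42, 5.89 and 5.92 in Cre+ kidneys, and every Cre+ value was above every Cre- value. The difference was 0.89 at 4 months (SE 0.21, 1.85-fold, adjusted p = 0.027) and 1.29 at 7 months (SE 0.23, 2.45-fold, adjusted p = 5.2e-04). The 4-month call was lost when any of 4 kidneys was left out, with adjusted p = 0.091 without Cre- replicate 1, 0.1 without Cre- replicate 3, 0.098 without Cre+ replicate 3 and 0.095 without Cre+ replicate 4. It was also lost with a plain linear model (adjusted p = 0.1), with only the 4-month arrays fitted (0.0501) and with all array entries tested (0.077). The table holds no detection calls, so how far the Cre- values of Rragb lie above background is unknown.

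The values of Rragb also differed with those of Y-linked genes. The mean of 3 Y-linked genes was at least 6.92 on 8 arrays and at most 2.98 on the other 7, with both kinds in every group. Among 4-month Cre- kidneys Rragb was 4.29 and 4.09 where Y-linked values were high, and 4.88 and 4.63 where they were low. Among 4-month Cre+ kidneys it was 5.14 and 4.89 against 5.70 and 5.72. In 7-month Cre+ kidneys it was 5.30 and 5.42 against 5.89 and 5.92. In these 3 groups the arrays with low Y-linked values were the higher ones, whereas in 7-month Cre- kidneys the single such array (4.48) lay between the other two (4.02 and 4.53). With the Y-linked mean as a covariate the Rragb difference was 0.88 at 4 months (SE 0.13, adjusted p = 4.2e-04) and 1.21 at 7 months (SE 0.14, adjusted p = 5.5e-06).

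Rraga, the paralogue of Rragb, did not pass the test. Its 4-month values were 7.72, 7.37, 7.55 and 7.36 in Cre- kidneys and 7.57, 8.01, 7.76 and 7.83 in Cre+ kidneys. At 7 months they were 7.14, 7.62 and 8.02 in Cre- kidneys and 7.89, 7.60, 7.56 and 8.04 in Cre+ kidneys. The groups overlapped at both ages. The 4-month difference was 0.29 (95% interval -0.06 to 0.64, limma adjusted p = 0.42). That at 7 months was 0.18 (95% interval -0.20 to 0.55, limma adjusted p = 0.55). The 7-month value rested on single kidneys, since it was -0.05 without Cre- replicate 1 (adjusted p = 0.88) and 0.39 without Cre- replicate 3 (adjusted p = 0.14). On the arrays with low Y-linked values alone, 1 of them Cre-, it was 0.65 (adjusted p = 0.07), and on those with high values it was -0.08 (adjusted p = 0.85).

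Flcn rose by a small amount with little spread among mice. Its values were 6.89, 7.02, 7.03 and 6.89 in 4-month Cre- kidneys and 7.34, 7.47, 7.51 and 7.43 in 4-month Cre+ kidneys. At 7 months they were 7.11, 6.91 and 7.18 in Cre- kidneys and 7.54, 7.59, 7.58 and 7.72 in Cre+ kidneys. No Cre+ kidney was as low as any Cre- kidney. The difference was 0.48 at 4 months (SE 0.09, 1.39-fold, adjusted p = 0.0049) and 0.54 at 7 months (SE 0.10, 1.45-fold, adjusted p = 5.5e-04).

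Fnip2, which encodes 1 of the partners that folliculin needs for its activity, rose by a like amount. Its 4-month values were 8.73, 8.73, 8.91 and 8.85 in Cre- kidneys and 9.35, 9.38, 9.28 and 9.33 in Cre+ kidneys. At 7 months they were 8.67, 8.73 and 8.92 in Cre- kidneys and 9.46, 9.32, 9.51 and 9.35 in Cre+ kidneys. The groups were apart at both ages. The difference was 0.53 at 4 months (SE 0.09, 1.45-fold, adjusted p = 0.002) and 0.64 at 7 months (SE 0.10, 1.55-fold, adjusted p = 1.2e-04).

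Fnip1, the other partner, had differences in the same direction that did not pass the test over all genes. Its 4-month values were 7.70, 7.71, 7.78 and 7.95 in Cre- kidneys and 7.98, 8.09, 8.13 and 7.99 in Cre+ kidneys, apart by 0.04. At 7 months they were 7.75, 7.49 and 7.84 in Cre- kidneys and 8.03, 7.80, 8.14 and 7.93 in Cre+ kidneys, with 1 Cre+ value below the highest Cre- value. The difference was 0.27 at 4 months (95% interval 0.05 to 0.48, limma adjusted p = 0.2) and 0.28 at 7 months (95% interval 0.04 to 0.52, limma adjusted p = 0.085), so both intervals lay above 0 and only the adjustment over all genes kept them from passing. The 7-month difference passed under 3 alternatives, namely a filter on low genes (adjusted p = 0.048), quantile normalization (0.041) and array weights (0.017). It was smaller with arrays centred on their median (0.21, adjusted p = 0.14) and without 7-month Cre- replicate 2 (0.18, adjusted p = 0.36).

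**Figure D3:**
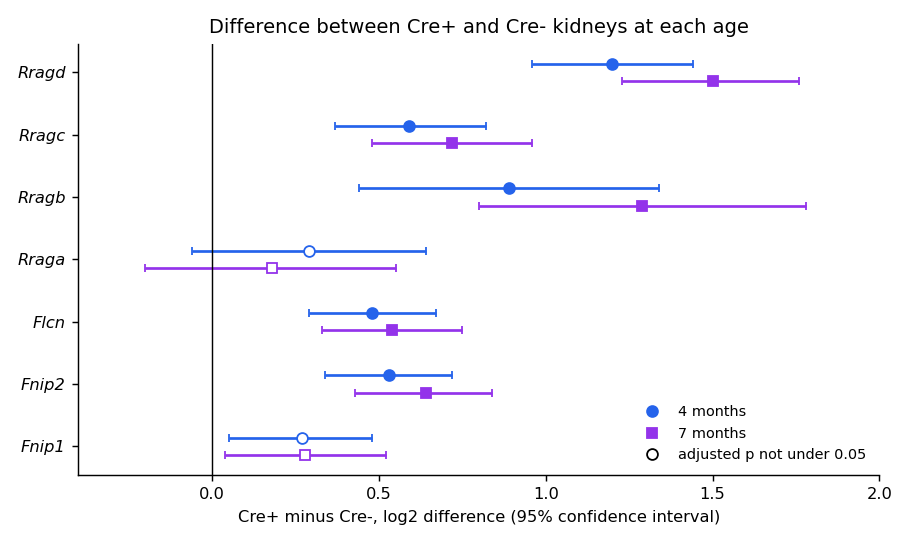
Cre+ minus Cre- difference of the 7 genes at each age, on the log2 scale. Circles are 4 months, squares are 7 months, bars are 95% confidence intervals from the limma fit over 15 arrays, and open symbols did not pass an adjusted p of 0.05. Rragd has the largest differences, 1.20 and 1.50, and the open symbols are those of Rraga and Fnip1.

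The difference between paralogues was also compared between groups. This comparison of the 3 natural pairs was added after the unequal differences had been seen on the same arrays, so its p-values describe these kidneys and are no independent evidence. The measure was the log2 value of 1 paralogue minus that of the other on the same array. The offset between 2 probe sets has no meaning of its own, so only its shift between groups was read. The shift can also depend on signal level, since the array processing compresses the differences of dim genes, and this was not tested. Cre labels were permuted within each age by an exact 2-sided permutation test. With both ages combined there are 2450 arrangements, which allow a smallest p of 4.1e-04, and within an age the smallest is 0.029.

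The Rragd minus Rragc difference was -0.08 ± 0.16 (SD, n = 4) in 4-month Cre- kidneys and 0.52 ± 0.22 (SD, n = 4) in 4-month Cre+ kidneys. At 7 months it was -0.10 ± 0.25 (SD, n = 3) in Cre- kidneys and 0.68 ± 0.06 (SD, n = 4) in Cre+ kidneys. The Cre+ kidneys lay above the Cre- kidneys at each age, a shift of 0.69 over both ages (exact permutation p = 4.1e-04, the smallest possible, and 6.1e-04 after adjustment over 3 pairs). The Fnip2 minus Fnip1 difference was 1.02 ± 0.09 (SD, n = 4) and 1.29 ± 0.09 (SD, n = 4) in 4-month Cre- and Cre+ kidneys. At 7 months it was 1.08 ± 0.16 (SD, n = 3) and 1.43 ± 0.06 (SD, n = 4). The shift over both ages was 0.31 (exact permutation p = 4.1e-04, adjusted 6.1e-04).

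The Rragb minus Rraga difference was -3.03 ± 0.49 (SD, n = 4) in 4-month Cre- kidneys and -2.43 ± 0.49 (SD, n = 4) in 4-month Cre+ kidneys, where the groups overlapped (exact permutation p = 0.14). At 7 months it was -3.25 ± 0.51 (SD, n = 3) and -2.14 ± 0.38 (SD, n = 4), without overlap (exact permutation p = 0.029). Over both ages the shift was 0.86 (exact permutation p = 0.0061, adjusted 0.0061). Within the arrays of high Y-linked values, the 4-month differences were -3.43 and -3.46 in Cre- and -2.43 and -3.11 in Cre+ kidneys, and within those of low values they were -2.49 and -2.73 in Cre- and -2.06 and -2.11 in Cre+ kidneys. The Cre+ kidneys were thus the higher ones within each class at 4 months, although the groups overlapped when the classes were pooled. This split was chosen after the data were seen, with only 2 Cre- and 2 Cre+ arrays per class at 4 months, and was not tested.

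**Figure D4:**
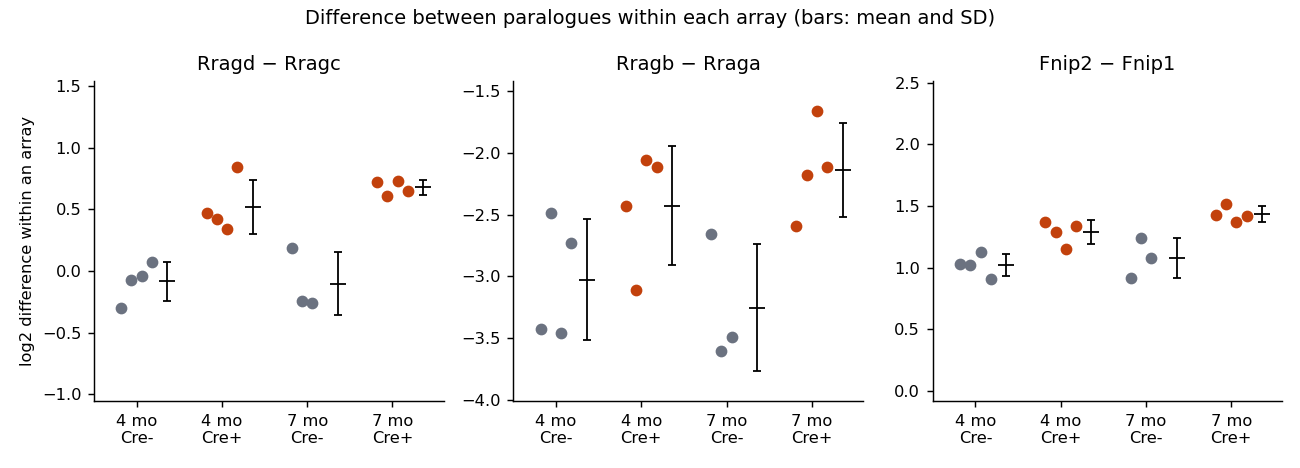
Difference between paralogues on each array, in log2 units, for Rragd minus Rragc, Rragb minus Rraga and Fnip2 minus Fnip1. Each point is a mouse, grey for Cre- and orange for Cre+, and bars give the group mean and SD. Cre+ points lie above Cre- points at both ages for the first and the third pair, and at 4 months the groups overlap for Rragb minus Rraga.

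The size of the Cre difference was not shown to change with age for any of the 7. The change in the difference from 4 to 7 months was 0.30 for Rragd (SE 0.17, 95% interval -0.06 to 0.65, adjusted p = 0.41) and 0.40 for Rragb (SE 0.32, 95% interval -0.27 to 1.07, adjusted p = 0.56). For the other 5 it lay between -0.12 and 0.12, with adjusted p from 0.74 to 0.97. In limma, 0 of the 7 were called (2.14% of all genes were), 0 had an unadjusted p under 0.05, and a plain linear model also called 0.

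In Cre- kidneys no difference between the ages passed the test for any of the 7. Differences at 7 minus 4 months ran from -0.13 for Rragb to 0.11 for Flcn, and that of Rragd was 0.00 (95% interval -0.26 to 0.26). The ages overlapped for all 7, while 3.94% of all genes had no overlap. In limma, 0 of the 7 were called, with 0.00451% of all genes called, 0 of the 7 had an unadjusted p under 0.05, and a plain linear model called 0.

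In Cre+ kidneys the differences at 7 minus 4 months were 0.30 for Rragd (SE 0.11, 95% interval 0.06 to 0.54, limma adjusted p = 0.11), 0.17 for Flcn (adjusted p = 0.24) and 0.27 for Rragb (adjusted p = 0.44). Those of Rragc, Fnip2, Rraga and Fnip1 were 0.15, 0.07, -0.02 and -0.07. The ages were apart by 0.03 for Flcn and overlapped for each of the others. The share of all genes without overlap is not given for this comparison, so how ordinary the Flcn gap is cannot be read here. Here 0 of the 7 were called in limma or with a plain linear model, against 10.8% of all genes in limma, and only Rragd had an unadjusted p under 0.05. The adjusted p of Rragd was 0.011 under quantile normalization, where its difference was 0.44.

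The order of group means for Rragd, Rragc and Flcn was 4-month Cre-, 7-month Cre-, 4-month Cre+ and 7-month Cre+, from lowest to highest. For Rragb and Fnip2 the 2 Cre- groups stood in the opposite order, below the same order of Cre+ groups. Rraga and Fnip1 had their highest mean in 4-month Cre+ kidneys. In each of these orders the neighbours that share a Cre status did not pass the test against each other.

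Markers of several cell types moved with Cre status in the same kidneys. Over all genes, 2.73% were called higher and 0.803% lower at 4 months, and 11.7% and 10.8% at 7 months. Of 15 macrophage markers, 6 were called higher at 4 months and 14 at 7 months, and 0 lower at either age. Their mean log2 value per kidney was 5.62 to 6.24 in Cre- and 6.41 to 6.82 in Cre+ kidneys at 4 months, and 5.63 to 6.04 and 7.41 to 7.72 at 7 months. Fibroblast markers were called higher in 4 of 8 at each age, and lymphocyte markers in 1 of 9 at 4 months and 7 of 9 at 7 months. Of 8 proximal tubule markers, 2 were called lower at 4 months and 8 at 7 months, with a mean per kidney of 11.14 to 11.29 in 7-month Cre- and 9.68 to 10.19 in 7-month Cre+ kidneys. Thick ascending limb markers were called lower in 2 and 3 of 6 at the 2 ages, and distal convoluted tubule markers in 2 and 5 of 5. Endothelial, adipocyte and podocyte markers were called in 0 of 7, 0 of 6 and 0 of 4 at 4 months. At 7 months 2, 1 and 3 of them were called lower and 0 higher. Of 9 collecting duct markers, 2 were called higher and 0 lower at 4 months, and 1 higher and 4 lower at 7 months, and their Cre- and Cre+ group means were 7.85 and 8.11 in the younger mice and 7.90 and 7.57 in the older ones. Cdh16, whose promoter drives Cre, had a difference of -0.17 in the younger mice (adjusted p = 0.55) and was lower in the older ones (-0.43, adjusted p = 0.026). The part of these shifts in the differences of the 7 genes was not tested.

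The other genes that act with the Rag GTPases and folliculin were counted in lists. Of 46 listed genes of the pathway, 41 were measured. At 4 months 0 of the 41 were called in either direction in limma (1 higher and 5 lower at an unadjusted p under 0.05, and 0 called by a plain linear model), with a median difference of -0.10. Under alternatives the 4-month lower count was 0 to 2, with Nprl2 called in 4 of 26 and Tfec in 1 of 26. At 7 months 1 was called higher and 11 lower, with a median of -0.10, against 11.7% of all genes called higher and 10.8% lower. The higher count was 4 under quantile normalization, 3 with array weights and 2 without 7-month Cre- replicate 3.

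Among the scaffold and upstream regulators, Ragulator, the lysosomal anchor of the Rag pair, had 0 of 5 members higher and 3 lower at 7 months. These were Lamtor5 at -0.81 (SE 0.19, adjusted p = 0.0044), Lamtor2 at -0.49 (adjusted p = 0.0094) and Lamtor4 at -0.48 (adjusted p = 0.003). GATOR1, the GTPase-activating complex for RagA and RagB, and its tether KICSTOR had 2 of 5 measured members lower, the catalytic subunit gene Nprl2 at -0.83 (adjusted p = 6.7e-04) and Kptn at -0.53 (adjusted p = 0.015). GATOR2, which opposes GATOR1, had 1 of 5 lower, Sec13 at -0.30 (adjusted p = 0.033). Of 6 measured amino acid sensor genes, 1 was lower, Castor2 at -0.87 (adjusted p = 0.0091). Castor1 at -0.60 did not pass (limma adjusted p = 0.051) but passed in 10 of 26 alternatives. Without 7-month Cre- replicate 3 the calls of Kptn, Castor2 and Sec13 were lost, and that of Sec13 was lost in 8 of 26 alternatives.

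Downstream, the kinase gene Mtor was lower in 7-month Cre+ kidneys (difference -1.02, SE 0.24, adjusted p = 0.0049) and was the only one of the 6 mTORC1 and Rheb genes called. Deptor (-0.33, limma adjusted p = 0.058) and Akt1s1 (-0.28, limma adjusted p = 0.072) did not pass, but each passed in 5 of 26 alternatives. In the TSC complex, which switches off Rheb, Tsc1 was 0.66 higher (SE 0.11, adjusted p = 3.6e-04) and Tbc1d7 was lower at -0.53 (adjusted p = 0.024), a call lost in 5 of 26 alternatives. Of 4 measured mTORC1 substrates 1 was lower, the translation repressor gene Eif4ebp2 at -0.46 (adjusted p = 0.0041). The complex of C9orf72, Smcr8 and Wdr41, which shares the DENN fold with folliculin, had 0 of 3 called and a median difference of 0.13 at 4 months and 0.24 at 7 months.

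Of the 4 MiT factor genes, 0 were called higher at either age. Tfec was lower at 7 months at -0.59 (SE 0.13, adjusted p = 0.0031), after a 4-month difference of -0.39 that did not pass (adjusted p = 0.094). The entry of the mouse Tfe3 gene differed by 0.03 and 0.22 at the 2 ages (adjusted p = 0.92 and 0.14), and no source used here says whether it reads the knocked-in fusion. Tfeb differed by -0.10 and -0.07 and Mitf by -0.17 and -0.26 at the 2 ages, with adjusted p from 0.28 to 0.75. Gpnmb, a lysosomal glycoprotein gene known as a TFE3 target, had differences of 6.30 at 4 months and 7.74 at 7 months, from Cre- means of 4.46 and 4.41 whose height above background is unknown, as for Rragb.

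**Figure D5:**
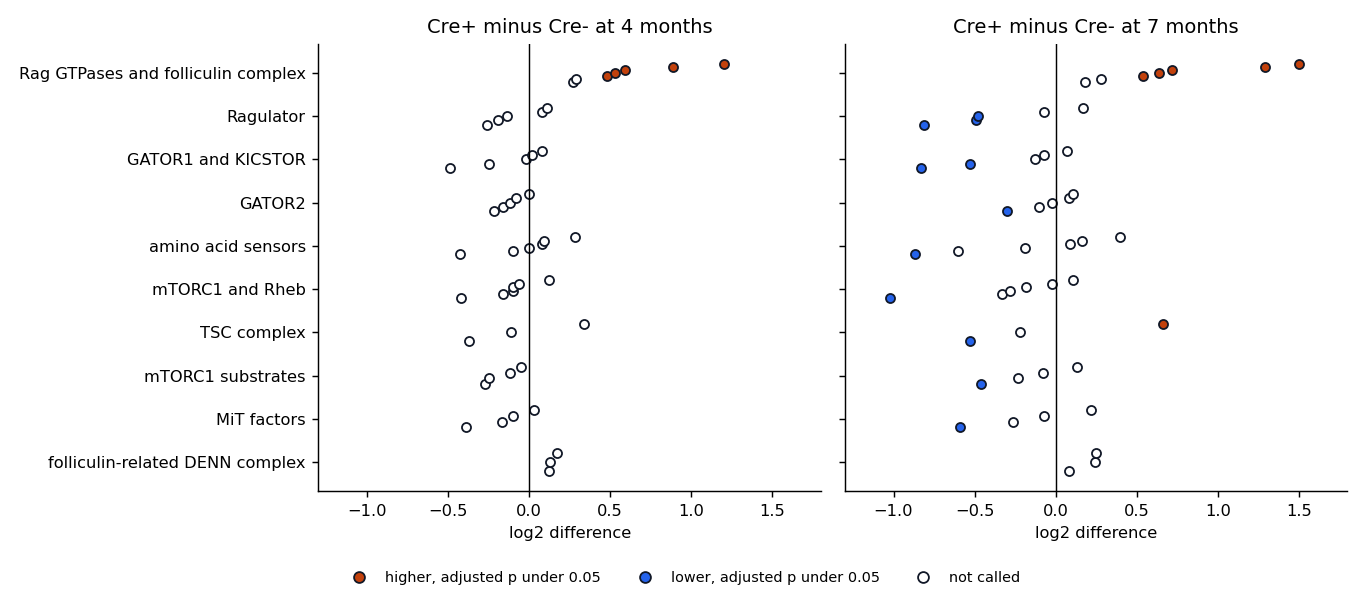
Cre+ minus Cre- difference of the 7 genes and of 41 further genes of the pathway, on the log2 scale, at 4 months on the left and 7 months on the right. Each point is a gene, rows are lists, orange points were called higher, blue points lower and open points were not called. The 5 called points of the top row lie between 0.48 and 1.50, and at 7 months 3 of the 5 Ragulator points are called lower.

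For the 5 genes called at both ages, the genes with the most like pattern over the 15 arrays were sought among 19248 named candidates. Likeness was the mean absolute difference of log2 values after each gene's own mean was subtracted. Closest to Rragd were the kinase gene Frk (0.104), the Wnt receptor gene Fzd6 (0.121) and Jazf1 (0.130). Closest to Rragc were the endoplasmic reticulum reductase gene Dnajc10 (0.085), the ETS factor gene Elf2 (0.085) and the translation initiation factor gene Eif1a (0.093). Rragb was closest to the myosin gene Myo5c (0.128), Parm1 (0.131) and the forkhead factor gene Foxc1 (0.140). Flcn was closest to the choline kinase gene Chka (0.069), Nktr (0.084) and the splicing regulator gene Mbnl2 (0.085). Unlike Flcn, these 3 genes did not pass at 4 months (limma adjusted p = 0.063, 0.12 and 0.09), though they passed at 7 months. Fnip2 was closest to the nucleotidase gene Nt5c2 (0.064), Ano10 (0.082) and the ubiquitin ligase adaptor gene Fem1c (0.082). Ranking by Pearson's r kept 3 of these 15 genes, so the names depend on the measure.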

How the data were processed

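Total RNA from 15 mouse kidneys was measured on Affymetrix Mouse Gene 2.0 ST arrays, from 100 ng of RNA each, with RNA integrity above 7, per the labels' protocols. The deposited values are log2 expression, made by the authors with RMA in Partek 6.6, per the submitters' processing notes. RMA subtracts background, equalises the arrays and combines probes, and it compresses the differences of dim genes. The log2 scale was taken from the values (1.04 to 13.12). Of 41345 entries, 23521 carried 1 gene symbol, 1814 several and 16010 none. For 1082 genes with several entries the one with the highest mean was kept, which left 22180 genes, and 23328 entries matched RefSeq by Entrez ID. The array number, with no depth, limits the precision.

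The 4 group means were fitted over 15 arrays with limma 3.58.1 in R 4.3.3, without a covariate, and p-values were adjusted by Benjamini-Hochberg over all genes tested. Exact permutation tests used Python 3.11.15. The code was tested on simulated data. Nothing says whether replicates differ in litter, so p-values measure the spread between these mice. All 7 genes, and up to 3 called genes per list and direction, are named, with the 3 most alike for each gene called at both ages. The members, lists and paralogue pairs were chosen with earlier results of these data known. Replicate numbers were checked for pairing by the correlation of same-numbered arrays' deviations from their group means. Over 21 pairs r ran from -0.47 to 0.3, and 11 were over 0.1, so the numbers were not taken to pair mice. Alternatives were filters, normalizations, variance models, a replicate block, a Y-linked covariate and arrays left out. Promoters are RefSeq's (GRCm38.p6). Proteins were not analysed here.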

Additional observations from a re-analysis of the deposited data

How the results depend on the processing

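Under other filters, normalizations, variance models and covariates, and with kidneys left out, the 7 genes had 4 or 5 calls at 4 months and 5 or 6 at 7 months, and Rragd, Rragc, Flcn and Fnip2 were called at both ages in each of these fits. The filter on low genes counts Rragb, whose Cre- values were all below the median of their arrays, so that it passed the filter through its Cre+ arrays. Leaving out 1 kidney at a time gave 4 to 5 calls at 4 months and 5 at 7 months, with Rragd at 1.13 to 1.29 and 1.41 to 1.55. Quantile normalization called 1 of the 7 at 7 minus 4 months in Cre+ kidneys (Rragd), and the cause was not tested. With only the arrays of high Y-linked values, and with only those of low values, both chosen after seeing the data, 2 of the 7 were called at 4 months with fewer arrays, namely Rragd (1.31 and 1.08) and Rragb (0.83 and 0.95). There the differences of Rragc (0.69 and 0.49), Flcn (0.44 and 0.52) and Fnip2 (0.55 and 0.52) kept their direction without passing, and at 7 months Flcn did not pass on the low arrays (0.54, adjusted p = 0.06), where 1 Cre- array remains. A fit with the replicate number as a block called 5 of the 7 at each age, with Rragd at 1.20 and 1.44, and 614 and 2398 genes higher in all, beside 606 and 2597 without it; it changed no call among the 7.

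Over all genes, 606 were higher and 178 lower at 4 months, and 2597 and 2394 at 7 months. Centring each array on its median gave 497 and 511, and 2337 and 3609, so higher calls made up 49.3% and 39.3% in place of 77.3% and 52%. Other 4-month counts of lower genes were 268 with the filter, 287 with quantile normalization, 324 with the Y-linked covariate, 109 over all entries and 72 at the least with 1 kidney left out, and higher counts fell to 370 at the least. Age comparisons also moved: the change of the Cre difference, 213 higher and 262 lower, gave 90 and 137 with a plain linear model, and 914 higher genes at 7 minus 4 months in Cre+ kidneys became 1325 under quantile normalization. The pathway genes lower at 4 months numbered 0 to 2 in place of 0, and those lower at 7 months 8 to 16 in place of 11. The macrophage markers higher at 4 months numbered 4 to 11 in place of 6. The number of mice, and the lack of detection calls for dim genes such as Rragb, limit the precision.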

Other observations

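In Cre+ kidneys, 1 of the 41 measured pathway genes was called between the ages, against 10.8% of all genes. Deptor, an inhibitory partner of mTOR, was 0.40 lower at 7 than at 4 months (limma difference -0.40, SE 0.11, adjusted p = 0.032). The nutrient-stress genes Sesn3 and Sesn2 had differences of 0.45 (adjusted p = 0.058) and -0.37 (adjusted p = 0.12) there, and neither passed. In Cre- kidneys 0 of the 41 were called between the ages in limma, against 0.00451% of all genes. There 1 of the 41 had an unadjusted p under 0.05, and a plain linear model called 0.

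The promoter windows of Rragb, Rragc and Fnip1 also held CACGTGA, the E-box core followed by A on either strand, a motif chosen after the sequences were seen. It was found in 1237 of 32851 windows (3.77%). Among these 3 genes the differences of Rragb and Rragc passed the test at both ages and those of Fnip1 did not. Rragd, Flcn and Fnip2, with no CACGTG in the window, passed at both ages, and Rraga, also with none, passed at neither. Only the promoter windows were searched and binding was not measured. Whether the motif bears on the differences was not tested.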
